A study of Homo sapiens with 4 samples.

Results

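ZIC1, ZIC2, ZIC4, ZIC5, SOX1, SOX2 and SOX3 are 7 transcription factor genes associated with neural progenitor cells. They were read in RNA from cultures of human embryonic stem cells that had been directed to the heart lineage. The genes were chosen by symbol from 60234 Ensembl genes of the count table, of which 55538 had a symbol, and the choice was made with values in view, because ZIC1 had one of the largest differences between the GFP-negative libraries. The lower levels of these genes in RA-treated GFP-negative cells are therefore a description of why they were chosen. Treated cultures received 1 µM retinoic acid (RA) between day 4 and day 7, and control (CTR) cultures received the solvent, DMSO. All 4 libraries came from the NKX2.5:GFP line, an established stem cell line that carries GFP at one copy of the NKX2-5 locus, and cells were sorted at day 31 into GFP-positive and GFP-negative fractions. The GFP-negative fraction is defined by the absence of GFP alone and may hold any cell of the culture without GFP. The 4 groups were RA-treated GFP-positive, RA-treated GFP-negative, CTR GFP-positive and CTR GFP-negative cells, with 1 library each. No difference between conditions could be tested, and every interval below covers counting error only.

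ZIC proteins are zinc finger factors related to the GLI factors of hedgehog signalling. They are known for early neural plate and dorsal neural tube development, and ZIC1 and ZIC4 together for the cerebellum. SOX1, SOX2 and SOX3 form the SOXB1 group, which share a DNA-binding HMG box and keep neural progenitors undifferentiated, and SOX2 is also a core factor of pluripotent stem cells. RA itself is a signal that patterns the neural axis towards the hindbrain and spinal cord, and it is used in cardiac differentiation to direct cells to an atrial type.

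Levels are given in CPM, read counts scaled to the size of each library, with the trimmed mean of M values (TMM) as a further factor. The CTR GFP-negative library held 4371101 reads, and each of the others had 6.0 to 6.55 times as many. As a result, 3 reads, taken here as the floor, stand for 0.639 CPM in CTR GFP-negative cells and for 0.105 to 0.117 CPM elsewhere. The highest levels of 6 of the 7 genes were found in this shallowest library. Mitochondrial genes took 5.56% to 7.48% of the reads in the GFP-negative and 14.1% to 14.9% in the GFP-positive libraries. The sort was visible in 8 cardiomyocyte genes, among them TNNT2 and MYH6, whose summed level was 801 CPM in CTR and 437 CPM in RA-treated GFP-negative cells but 16809 CPM and 15570 CPM in the GFP-positive cells.

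Of the 7 genes, 4 lie in head-to-head pairs. On GRCh37, ZIC1 (ENSG00000152977, plus strand, chr3:147111209-147228080) and ZIC4 (ENSG00000174963, minus strand, chr3:147103833-147124596) have canonical starts that are 2.82 kb apart. ZIC2 (ENSG00000043355, plus strand, chr13:100634038-100639019) and ZIC5 (ENSG00000139800, minus strand, chr13:100615218-100624021) start 10.0 kb apart. The canonical transcripts of the ZIC genes have 2 to 5 exons. SOX1 (ENSG00000182968, plus strand, chr13:112721463-112726020), SOX2 (ENSG00000181449, plus strand, chr3:181429713-181432224) and SOX3 (ENSG00000134595, minus strand, chrX:139585150-139587234) have a single exon each.

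The promoters of ZIC1, ZIC2, SOX2 and SOX3 are shown because these genes had the most reads in CTR GFP-negative cells. Each runs from 250 bases before to 50 bases after the start (RefSeq, GRCh38.p14), 5′ to 3′ on the gene's strand, and capitals mark the motifs found. They are ZIC1 at chr3:147409115-147409414 (plus), ZIC2 at chr13:99981534-99981833 (plus), SOX2 at chr3:181711675-181711974 (plus) and SOX3 at chrX:140505020-140505319 (minus).
ZIC1: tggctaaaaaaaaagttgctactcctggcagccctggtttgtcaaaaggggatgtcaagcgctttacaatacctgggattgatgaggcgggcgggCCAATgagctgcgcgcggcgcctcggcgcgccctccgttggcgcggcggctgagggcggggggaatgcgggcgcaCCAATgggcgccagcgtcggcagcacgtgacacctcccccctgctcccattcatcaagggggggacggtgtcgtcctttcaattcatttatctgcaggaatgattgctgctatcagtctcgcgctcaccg
ZIC2: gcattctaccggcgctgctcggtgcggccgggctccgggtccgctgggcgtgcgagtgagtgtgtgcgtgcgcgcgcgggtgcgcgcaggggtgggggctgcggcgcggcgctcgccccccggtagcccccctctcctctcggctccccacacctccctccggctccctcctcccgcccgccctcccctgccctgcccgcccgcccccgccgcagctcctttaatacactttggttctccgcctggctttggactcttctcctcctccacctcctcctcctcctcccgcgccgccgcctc
SOX2: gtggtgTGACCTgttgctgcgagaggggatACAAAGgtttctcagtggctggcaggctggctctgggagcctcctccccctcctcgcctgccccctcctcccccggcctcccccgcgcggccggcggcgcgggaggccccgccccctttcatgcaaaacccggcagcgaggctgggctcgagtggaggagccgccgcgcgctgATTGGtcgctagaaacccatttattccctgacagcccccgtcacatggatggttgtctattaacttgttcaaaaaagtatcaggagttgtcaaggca
SOX3: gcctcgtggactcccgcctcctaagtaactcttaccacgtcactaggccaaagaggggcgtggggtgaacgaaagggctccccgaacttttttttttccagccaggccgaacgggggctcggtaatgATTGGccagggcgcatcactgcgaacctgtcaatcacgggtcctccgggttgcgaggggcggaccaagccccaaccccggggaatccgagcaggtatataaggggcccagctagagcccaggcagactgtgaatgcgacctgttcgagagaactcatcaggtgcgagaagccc
The motifs searched on both strands were CCAAT (the CCAAT box), TATAAA (the TATA box), AGGTCA (the hexamer that RA receptors bind), and the SOX site cores ACAAAG (first core) and, as a second core, ACAATG. No base in the printed sequences belonged to 2 motifs. ZIC1 held 2 copies of CCAAT, SOX3 held 1, and SOX2 held 1 copy each of the CCAAT box, the hexamer and the first SOX core, whereas none of the motifs was found in the ZIC2 window. Among 35116 promoter windows of this length, 34.6% held the CCAAT box, 11.5% the TATA box, 13.8% the hexamer, 16.1% the first SOX core and 10.8% the second. The 4 windows held 20 to 35 CpG dinucleotides, against a median of 14 over all windows, and ZIC2 had both the most CpG and a GC content of 75%. These matches describe the letters of the windows, and binding was not measured.

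One sequence bears on how reads of the SOX genes were counted. The longest stretch that SOX1 and SOX2 share without a mismatch is 89 bases, longer than 1 sequenced end of 75 bases, and is shown because reads were kept only where they had a single position. It lies in the single exon of both genes (GRCh37, SOX1 chr13:112722141-112722229, SOX2 chr3:181430287-181430375, both on the plus strand).
SOX1 and SOX2: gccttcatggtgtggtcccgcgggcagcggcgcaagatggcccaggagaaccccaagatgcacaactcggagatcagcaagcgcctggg
A pair with 1 end wholly inside this stretch depends on the other end for its position. The longest stretches shared by SOX3 with SOX1 and SOX2 were 32 and 23 bases, and those between ZIC genes were 21 to 43 bases, all shorter than a read end. ZIC1 and ZIC4 also have 176 exon bases in common on opposite strands, out of 6825 exon bases of ZIC1, and ZIC4 has a further 268 in common with its antisense gene ZIC4-AS1. The counting did not use strand, so reads from these bases cannot be told apart.

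ZIC1, which acts early in the dorsal neural tube, had 106 reads in CTR and 20 in RA-treated GFP-negative cells, whereas in GFP-positive cells 26 in CTR and 0 with RA. These were 22.6 CPM (interval 18.5 to 27.3), 0.779 CPM (0.476 to 1.20), 0.907 CPM (0.593 to 1.33) and 0 CPM (floor 0.112). CTR GFP-negative cells thus stood above the other libraries, and the intervals of RA-treated GFP-negative and CTR GFP-positive cells overlapped. Its head-to-head partner ZIC4 had 34, 5, 13 and 7 reads in the same order, or 7.24, 0.195, 0.454 and 0.262 CPM. ZIC4 had the same highest library as ZIC1, but the intervals of its other 3 libraries all overlapped.

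ZIC2, a factor of forebrain midline formation, had 111 reads in CTR and 176 in RA-treated GFP-negative cells, whereas the GFP-positive cells had 31 in CTR and 9 with RA. Its levels were 23.6 CPM (19.4 to 28.5), 6.86 CPM (5.88 to 7.95), 1.08 CPM (0.735 to 1.54) and 0.337 CPM (0.154 to 0.639). In contrast to ZIC1, ZIC2 was stepped, and no interval overlapped the next. ZIC5, its partner on chromosome 13, had 55, 25, 9 and 6 reads, or 11.7, 0.974, 0.314 and 0.224 CPM. Its intervals in the GFP-positive libraries overlapped, and RA-treated GFP-negative cells (0.630 to 1.44) lay above both.

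SOX2 had the most reads of the 7 genes in both GFP-negative libraries, with 158 in CTR and 366 in RA-treated cells, against 25 in CTR and 30 in RA-treated GFP-positive cells. The levels were 33.6 CPM (28.6 to 39.3), 14.3 CPM (12.8 to 15.8), 0.872 CPM (0.565 to 1.29) and 1.12 CPM (0.757 to 1.60). SOX2 was therefore retained at over 10 CPM in RA-treated GFP-negative cells, which none of the other 6 genes was, and its GFP-positive libraries overlapped. SOX3, an X-linked SOXB1 gene, had 83, 73, 25 and 0 reads, or 17.7, 2.84, 0.872 and 0 CPM, with no overlap between its intervals. SOX1, the SOXB1 gene most restricted to the neural plate and tube, had 4, 22, 7 and 0 reads, or 0.852, 0.857, 0.244 and 0 CPM. In CTR GFP-negative cells SOX1 was thus at the detection limit of 4 reads, while SOX2 and SOX3 were its abundant relatives.

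**Figure D1:**
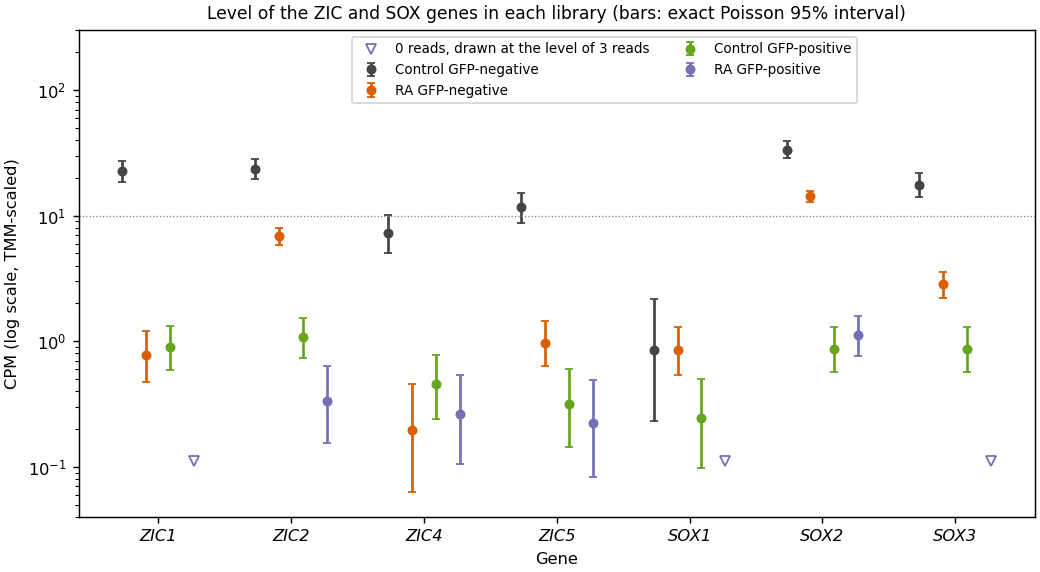
CPM of the 7 genes (log axis) in the 4 libraries, as points with exact Poisson 95% intervals, where open triangles stand for 0 reads drawn at the level of 3 reads and the dotted line marks 10 CPM. CTR GFP-negative cells were highest for every gene but SOX1, and the RA-treated GFP-positive library held 0 reads of ZIC1, SOX1 and SOX3.

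Levels of different genes were compared per kb of exon sequence. In CTR GFP-negative cells the order was SOX2 with 13.4 CPM per kb, SOX3 with 8.48, ZIC2 with 7.19, ZIC1 with 3.31, ZIC5 with 2.60, ZIC4 with 0.850 and SOX1 with 0.187. The neighbours SOX3 and ZIC2, and ZIC1 and ZIC5, did not differ beyond their counting intervals. In RA-treated GFP-negative cells SOX2 again came first with 5.68 CPM per kb, followed by ZIC2 with 2.08 and SOX3 with 1.36, and the other 4 genes lay between 0.0229 and 0.217. ZIC5, SOX1 and ZIC1 overlapped there in this order, so that ZIC1, the fourth of the 7 genes in CTR cells, had moved below SOX1, though within the intervals. In GFP-positive cells no gene was above 0.447 CPM per kb. With canonical transcript lengths in place of all exons, the 7 genes had the same order in both GFP-negative libraries.

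RA-treated GFP-negative cells were compared with CTR GFP-negative cells. Both libraries also held reads of cardiomyocyte genes, and differences in cell composition were not tested. Of the 7 genes, 5 had at least 10 CPM in either library, and all 5 were lower by 2-fold or more with RA on the log2(CPM + 1) scale, against 3.18% of 11606 genes that passed the same filter. Since this contrast chose ZIC1, and 1 of the filter's 2 libraries was where the genes were high, nothing is read from that count. ZIC1 was 29.0-fold lower (interval 17.8 to 49.3), a log2(CPM + 1) difference of -3.73, and ranked 4 from the lowest. ZIC5 (-2.69, rank 25), SOX3 (-2.28, rank 46), ZIC2 (-1.65, rank 105) and SOX2 (-1.18, rank 241) followed. The differences thus spanned from 29.0-fold for ZIC1 to 2.36-fold (1.95 to 2.85) for SOX2, with 12-fold for ZIC5, 6.21-fold for SOX3 and 3.45-fold for ZIC2. Below 10 CPM, ZIC4 was 37.2-fold lower, with a wide interval of 14.5 to 122, and SOX1 had a ratio of 1.01 (0.342 to 4.02), which includes both a 2-fold decrease and a 2-fold increase. Just inside the 2-fold limit was SOX2, and the only member outside it was SOX1, with a difference of 0.00.

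In GFP-positive cells, where the question is whether RA left these genes in the cardiac fraction, the 7 genes were all under 1.2 CPM and none reached the filter of 10 CPM. By a rule chosen after the values were seen, a ratio of 0.5 or less among genes with at least 4 reads, and a library without reads set at 3 reads, 4 of the 7 genes were lower with RA, where 12.1% of 26551 genes were. Nothing is read from this count, since 3 of the 4 (ZIC1, SOX1 and SOX3) passed the filter of 4 reads through the CTR library alone. ZIC1 was at least 8.09-fold lower and SOX3 at least 7.78-fold lower (the observed CTR level over the floor of 3 reads in the RA library), ZIC2 had a ratio of 0.311 (0.130 to 0.669), and SOX1 went from 7 reads to 0. ZIC4 (0.577, 0.195 to 1.56), ZIC5 (0.714, 0.209 to 2.25) and SOX2 (1.29, 0.731 to 2.28) had intervals that include 1, so that a difference was not detectable at this depth. The depths of these 2 libraries were almost equal, and the counts of 0 to 31 reads set the precision.

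Between the fractions of the CTR culture, 6 of the 7 genes were lower in GFP-positive cells with intervals that exclude 1, SOX1 being the exception, and 26.5% of 24925 genes with at least 4 reads in either library were lower by the same rule. The 5 genes with at least 10 CPM were all past 2-fold, where 13.3% of 11806 genes were. They passed the filter through the CTR GFP-negative library alone, in which they were high and which entered the choice of genes, so nothing is read from this count. SOX2 was 38.6-fold lower (25.2 to 61.4) in the GFP-positive fraction, ZIC5 37.3-fold, ZIC1 24.9-fold (16.1 to 39.8), ZIC2 21.9-fold and SOX3 20.3-fold. Of the genes under 10 CPM, ZIC4 was 16-fold lower, and SOX1 had a ratio of 0.287 with an interval of 0.0729 to 1.34. This comparison shares the CTR GFP-negative library with the comparison of RA, and a high level in that library lowers both.

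In the RA culture only SOX2 passed the filter. It was 12.7-fold lower (8.75 to 19.1) in GFP-positive cells. Lower by 2-fold or more were 12.4% of 11850 genes, and nothing is read from this share, since SOX2 passed the filter through the GFP-negative library, where it was high. ZIC2 was 20.4-fold lower (10.5 to 45.3), ZIC5 had a ratio of 0.230, and SOX3 was at least 25.4-fold, SOX1 at least 7.64-fold and ZIC1 at least 6.95-fold lower. ZIC4 had a ratio of 1.34 (0.367 to 5.37) from 7 and 5 reads. Thus 6 of the 7 genes were lower in the GFP-positive cells of the RA culture, where SOX2, ZIC2 and ZIC5 still had 30, 9 and 6 reads. By the same counting intervals 33.5% of 27419 genes were lower, and nothing is read from the count of 6. In bulk RNA, fewer expressing cells and less RNA per cell cannot be told apart.

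**Figure D2:**
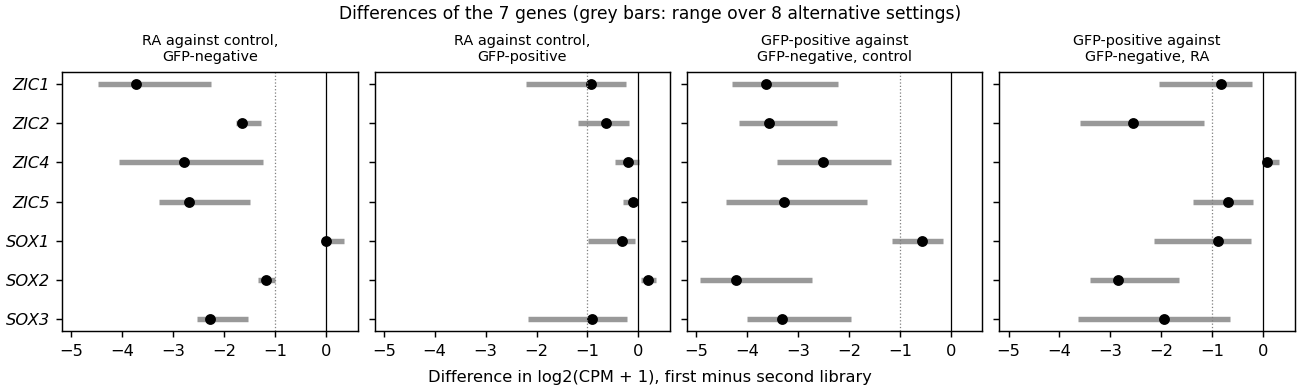
Differences in log2(CPM + 1) of the 7 genes in the 4 comparisons (x axis, first minus second library), as points with grey bars for the range over 8 other scalings, pseudocounts and depths; dotted lines mark a 2-fold lower level. In the GFP-negative cells ZIC1 lay at -3.73, SOX2 at -1.18 and SOX1 at 0.00, and among GFP-positive cells the differences were between -0.93 and 0.18.

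Ratios between 2 genes of the same library do not depend on the scaling of that library. ZIC1 exceeded ZIC4 3.89 times per kb (2.62 to 5.91) in CTR and 4.99 times (1.82 to 17.0) in RA-treated GFP-negative cells, and 2.5 times (1.24 to 5.29) in CTR GFP-positive cells. These intervals overlapped, whereas RA-treated GFP-positive cells had 7 reads of ZIC4 and 0 of ZIC1. With canonical transcript lengths these ratios were 2.38 (1.60 to 3.61), 3.05 (1.11 to 10.4) and 1.53 (0.757 to 3.23) in the same order. The last interval includes 1, so the excess of ZIC1 in CTR GFP-positive cells depends on the length used. The ratio of ZIC2 to ZIC5 was 2.76 (1.98 to 3.88) in CTR and 9.62 (6.31 to 15.3) in RA-treated GFP-negative cells, then 4.71 (2.19 to 11.2) in CTR and 2.05 (0.652 to 7.00) in RA-treated GFP-positive cells. The ratio of SOX2 to SOX3 was 1.58 (1.20 to 2.09) and 4.16 (3.23 to 5.43) in the GFP-negative cells, CTR first, and 0.830 (0.457 to 1.51) in CTR GFP-positive cells. For both pairs the intervals of the GFP-negative libraries did not overlap: with RA, ZIC5 was lower by a larger factor than ZIC2, and SOX3 than SOX2. In RA-treated GFP-positive cells 30 reads of SOX2 stood against 0 of SOX3.

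**Figure D3:**
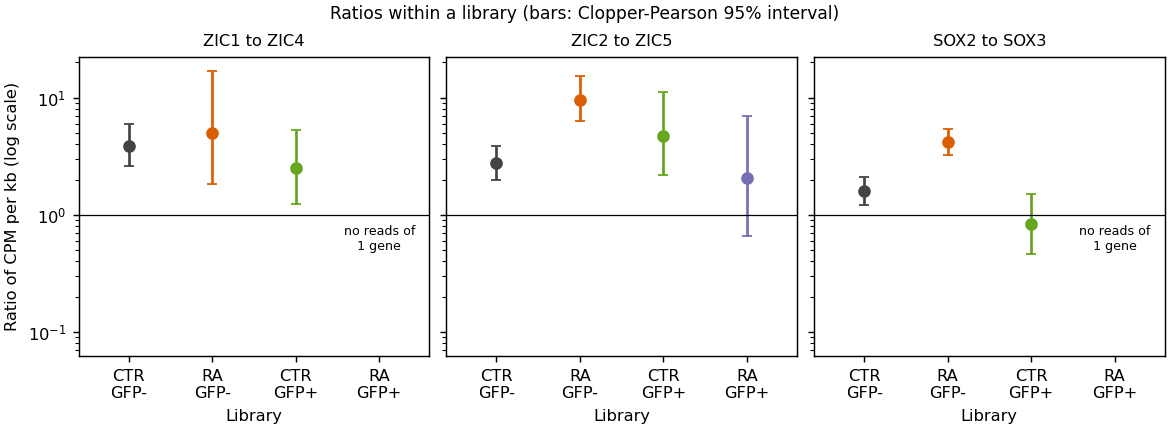
Ratio of CPM per kb of exon (log axis) of ZIC1 to ZIC4, ZIC2 to ZIC5 and SOX2 to SOX3 in each library, with Clopper-Pearson 95% intervals; ratios with 0 reads of 1 gene are not drawn. The ratios of ZIC2 to ZIC5 and of SOX2 to SOX3 were higher in RA-treated than in CTR GFP-negative cells, at 9.62 against 2.76 and 4.16 against 1.58.

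Among related zinc finger genes, the hedgehog effectors GLI1, GLI2 and GLI3 had ratios of 1.57 (0.816 to 3.40), 0.935 (0.794 to 1.11) and 0.556 (0.490 to 0.631) for RA in GFP-negative cells, of which the first 2 include 1.

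The 16 other SOX genes had no common direction with RA in GFP-negative cells. Of 15 with at least 4 reads, 4 were higher and 6 lower with counting intervals that exclude 1, and 5 had intervals that include 1. By the same rule 22.6% of 25190 genes were higher and 19.2% lower. The median log2(CPM + 1) difference was 0.02, of changing sign over the alternatives (-0.21 without a pseudocount and with genes at 0 reads set at 3 reads), against -2.28 for the 7 ZIC and SOXB1 genes and 0.16 for all 25190 genes with at least 4 reads. SOX9, which acts in cartilage, gut and neural crest, was 3.57-fold higher with 14.5 CPM in CTR and 51.6 CPM in RA-treated cells, and SOX18, an endothelial factor, 2.47-fold higher. SOX6 and SOX5, partners of SOX9 in cartilage, were lower with ratios of 0.415 and 0.443. SOX11, a factor of immature neurons, had a ratio of 1.02 (0.917 to 1.13), and SOX21, a SOXB2 gene, of 1.10 (0.592 to 2.22).

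Genes of neural progenitors and the forebrain lay on the same side as the 7 genes in GFP-negative cells. Of 17 with at least 4 reads, 12 were lower with RA beyond their counting intervals, none was higher, and 5 had intervals that include 1 (19.2% of all genes were lower), with a median of -1.06 over the 17. Without a pseudocount and with genes at 0 reads set at 3 reads this median was -2.63, and that of the 7 ZIC and SOXB1 genes -2.64. PAX6, of the eye field and neural progenitors, went from 96.3 CPM to 8.50 CPM, OTX2, of forebrain and midbrain, from 35.1 CPM to 3.90 CPM, and HES5, a Notch target of progenitors, from 11.1 CPM to 0.390 CPM. SIX3 and RAX, factors of the eye field, were lower with ratios of 0.0864 and 0.161. In CTR GFP-positive cells 13 of 17 were lower than in CTR GFP-negative cells beyond their intervals and 2 were higher, against 26.5% and 26.8% of all genes. This comparison shares the CTR GFP-negative library with that of RA, and a high level there lowers both. NES, a filament gene of progenitors that other tissues also express, was among the higher genes, with 266 CPM against 166 CPM. For RA in GFP-negative cells NES and LHX2 had ratios of 0.926 (0.857 to 1.00) and 0.827 (0.679 to 1.01). The neural genes thus did not all show the pattern of ZIC1.

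Dorsal neural tube and neural crest genes, the region for which ZIC1 is best known, were split between the GFP-negative libraries, with 4 of 13 higher and 3 lower with RA beyond their counting intervals, near the 22.6% and 19.2% of all genes, and 6 with intervals that include 1. OLIG3 and ATOH1 were among these 6, with 0 reads in the shallow CTR library. The median was 0.26, and it turned to -0.27 without a pseudocount and with genes at 0 reads set at 3 reads, so that no direction is given for these genes as a group. LMX1A and WNT3A, of the roof plate, were lower with ratios of 0.106 and 0.0985, whereas TFAP2B (11.2-fold) and TFAP2A (3.08-fold), of neural crest and surface ectoderm, were higher. Of 10 neuron genes, 5 were lower and 2 higher beyond their intervals, where 19.2% and 22.6% of all genes were, and TUBB3, MAP2 and NEFM had intervals that include 1, with a median of -0.59 over the 10. STMN2, a tubulin regulator of neurons, was among the higher genes, with 16.8 CPM in CTR and 72.7 CPM in RA-treated cells. It was also higher with RA among GFP-positive cells, with 1.26 CPM in CTR and 42.5 CPM in RA-treated cells.

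Eye pigment cell genes lay on the same side as the 7 genes between the GFP-negative libraries. Of 8 eye pigment cell genes, 7 were lower with RA beyond their intervals, where 19.2% of all genes were, and BEST1 had a ratio of 0.932 (0.580 to 1.57), with a median of -2.40 and a summed level of 731 CPM in CTR and 97.6 CPM in RA-treated cells, none of them at 0 reads. PMEL, of the pigment granule, went from 444 CPM to 48.2 CPM. By comparison, the summed level of the 7 ZIC and SOXB1 genes went from 117 CPM to 26.8 CPM. The part of pigmented cells in these values was not tested.

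Pluripotent cell genes bear on SOX2, which such cells also express. Between the GFP-negative libraries 10 of 12 were higher with RA beyond their intervals, where 22.6% of all genes were, and LIN28B and ZFP42 had intervals that include 1, with a median of 0.90 and a summed level of 76.7 CPM in CTR and 151 CPM in RA-treated cells. POU5F1 had 0 reads in CTR and 395 in RA-treated cells (at least 24.1-fold higher), and NANOG had 0 and 25. LIN28A and TDGF1 were 5.05-fold and 11.9-fold higher. Of 11 foregut and stomach genes, 10 were higher beyond their intervals by the same rule, and NKX2-1 had 9 reads against 0, which lies below what the CTR library could detect. The list had a median of 2.97 and a summed level of 5.11 CPM in CTR and 108 CPM in RA-treated cells. FOXA2, of foregut endoderm, had 0 and 240 reads, and PDX1 1 and 357. Thus the RA-treated GFP-negative cells in which SOX2 was at 14.3 CPM had reads of POU5F1, FOXA2 and PDX1 that were at or near 0 in CTR cells. RA-treated GFP-positive cells, with SOX2 at 1.12 CPM, had 27, 13 and 8 reads of these genes. CTR GFP-positive cells had 1, 0 and 2. Which cells carried the SOX2 reads was not tested.

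Of the somite and mesenchyme genes, 8 of 11 were higher and 2 lower in the RA-treated GFP-negative library beyond their intervals (median 1.40). In the same way, 7 of 8 cardiomyocyte genes were lower (median -0.88) and 8 of 10 RA response genes higher (median 1.24), where 22.6% of all genes were higher and 19.2% lower, and the intervals of MYL4, CYP26A1 and CYP26B1 include 1. HOXA3, an RA-responsive gene of the hindbrain and pharyngeal region, had 0 reads in CTR and 35.8 CPM in RA-treated cells.

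**Figure D4:**
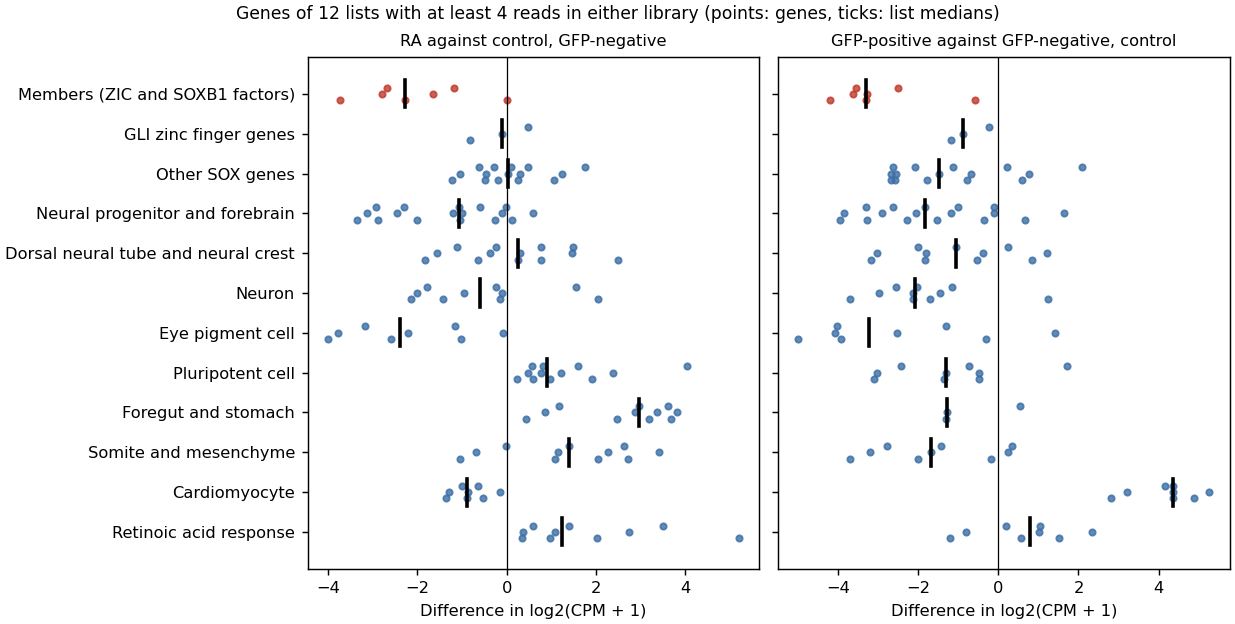
Differences in log2(CPM + 1) of single genes (points) in 12 lists for RA against CTR in GFP-negative cells (left) and GFP-positive against GFP-negative cells of the CTR culture (right), with list medians as vertical ticks and genes with at least 4 reads in either library shown. On the left, the contrast from which ZIC1 was chosen, the ZIC and SOXB1 genes had a median of -2.28, the eye pigment genes of -2.40 and the foregut and stomach genes of 2.97.

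The genes most like each member over the 4 libraries were sought among 12258 genes by the Euclidean distance of centred log2(CPM + 1) values, as a description of 4 points. FEZF2 (distance 0.322), a forebrain factor, with 87, 9, 13 and 0 reads in CTR and RA-treated GFP-negative and CTR and RA-treated GFP-positive cells, came nearest to ZIC1, followed by the pigment enzyme gene TYR (0.534) and DAPL1 (0.630). For ZIC5 they were FOXE3 (0.124), a lens factor, BHMT (0.236) and FGFBP3 (0.299), and for SOX3 they were SAA2 (0.251), RAX (0.395) and OR51E1 (0.481). ZIC2 had BICDL1 (0.150), SIM1 (0.172) and ANXA8L1 (0.178), and SOX2 had BNC1 (0.163), CLDN1 (0.185) and FAM131B (0.186). None of the 3 nearest genes of a member was another member. With a pseudocount of 5 CPM, 2 of the 3 genes were the same for ZIC1 and ZIC2, 1 for ZIC5 and SOX3 and 0 for SOX2.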

How the data were processed

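RNA of 4 sorted populations was sequenced as paired ends of 75 bases, with 1 library per condition. The authors trimmed reads by quality with SICKLE, mapped them to a modified hg19 genome with GSNAP, sorted them with SAMtools 0.1.18 and retained reads with a single position. They counted reads per Ensembl gene with HTSeq 0.6.1p1 without using strand, although the libraries were strand-specific. The deposited values are these raw counts. The Ensembl release is not given in the sources used here. Dropping reads with several equally good positions can lower genes that share near-identical stretches.

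CPM were computed from the counts with TMM factors (0.951 to 1.07) from edgeR 4.0.16 in R 4.3.3. Differences were taken between log2(CPM + 1) values. CPM have exact Poisson intervals and ratios Clopper-Pearson intervals, both at the 95% level. Reads are not independent molecules, so intervals and the 3-read floor describe counting error alone. A fold given as at least sets the library at 0 reads at this floor and takes the other count as exact. It is therefore not the limit of a counting interval. No model was fitted and no test was made, as there is 1 library per condition. Genes counted past 2-fold had at least 10 CPM in either library, and list medians used genes with at least 4 reads in either library. Genes named are the 7 members, genes of 11 further lists and the 3 genes nearest to each member with at least 10 CPM in 1 or more libraries. The members and lists were chosen with earlier results of these data known. Of 131 list genes, 2 (NEFL and GIF) were not analysed here, and 1 other is not reported here. Gene coordinates and lengths are those of GENCODE lifted to GRCh37. The alternatives were library size alone, DESeq2 1.42.0 size factors, upper quartile factors, TMM of each pair, library size after removing mitochondrial and the 10 most abundant genes, a pseudocount of 0.25 or 5 CPM, thinning to 4371101 reads, and other filters and thresholds. The procedure was tested on simulated data. The figures used matplotlib 3.10.9 and Python 3.11.15.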

Additional observations from a re-analysis of the deposited data

Results flagged for a closer look

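In 4 genes the RA difference had opposite directions in the 2 fractions. Whether the fractions differ was not tested, since each condition has 1 library. SOX2 had a log2(CPM + 1) difference of 0.18 among GFP-positive cells, where the interval of its ratio includes 1, and of -1.18 among GFP-negative cells. SOX1 had differences of -0.32 and 0.0043 in the same order, and the interval of the second ratio includes 1. GLI3 had 0.36 and -0.83, and SOX8, a neural crest and glial factor, had 0.84 and -0.48. For GLI3 and SOX8 the counting intervals excluded 1 in both fractions.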

How the results depend on the processing

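Of 28 differences of the 7 genes, 26 kept 1 direction under all 8 alternatives of scaling, pseudocount and depth. The exceptions were SOX1 between the GFP-negative libraries, which ranged from -0.06 to 0.36, and ZIC4 between the GFP-positive libraries, which was 0.01 with every library thinned to the smallest. A fold threshold of 4 left 3 of the 5 genes lower with RA in GFP-negative cells. With at least 1 CPM, or with no filter, 3 genes in place of 1 were lower in GFP-positive than GFP-negative cells of the RA culture. By the ratio of 0.5 or less, chosen after seeing the data, these were 6, and 4 in place of 0 were lower with RA in GFP-positive cells. The median of the 7 genes for RA in GFP-negative cells was -1.27 with a pseudocount of 5 CPM. The median between the fractions of the CTR culture was -4.16 with 0.25 CPM, -1.95 with 5 CPM and -4.45 with no pseudocount.

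Over all genes, those lower by 2-fold or more numbered 369 for RA in GFP-negative cells, 187 for RA in GFP-positive cells, 1567 between the CTR fractions and 1474 between the RA fractions. In the same order they were 58, 19, 749 and 573 at 4-fold, 1418, 371, 3191 and 2546 with at least 1 CPM or no filter, and 5675, 3217, 7288 and 6341 by the ratio rule. With a pseudocount of 5 CPM the first 2 were 208 and 112. For the other lists, 451 of 484 alternative medians stayed within the spread of the main value, and 14 had the opposite sign, in 7 of 44 list medians. Foregut and stomach genes between the CTR fractions went from -1.29 to 0.55 with at least 20 reads, where fewer genes were left. For RA in GFP-negative cells, other SOX genes (0.02) turned under 6 of 11 alternatives, down to -0.21, and dorsal neural tube and neural crest genes (0.26) under 2, down to -0.27. SOX1 had 4 reads in the shallow CTR GFP-negative library, and ZIC4 had 5 reads in RA-treated GFP-negative cells. The intervals of both for RA in GFP-negative cells are therefore wide. No paired analysis was possible because each condition has 1 library without a replicate number.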
